A study of Mus musculus with 18 samples.

Results

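Tff3, which encodes trefoil factor 3, was followed across the livers of 18 mice. It was represented by 1 probe, the only one of 39429 non-control probes on the array whose deposited gene name was Tff3, with 1 spot per array, and was 1 of 15951 genes with enough signal to be fitted between diets. It had been chosen by its measured difference between the diets on these arrays, so its values in the 2 diets are given as a description, without a test.

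The mice were male C57BL/6J, an inbred laboratory strain, and all of them ate a high-fat diet with 51.1% of energy as lipid for 5 weeks, starting at 8 weeks of age. In the LIN diet group (8 mice) the fat was linseed oil, in which polyunsaturated fatty acids made up 66.7% and alpha-linolenic acid, the plant n-3 fatty acid, 49.7%. In the PALM diet group (10 mice) it was palm oil, with 55.6% saturated and 8.8% polyunsaturated fatty acids. Livers were taken at 13 weeks of age, and each mouse had its own 1-colour Agilent array. A low-fat group was not analysed here, so LIN is described relative to PALM only, and mice are named by diet and replicate number.

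Trefoil factors are small secreted peptides that share a cysteine-rich trefoil fold and are released with mucins onto epithelial surfaces, where they promote the closing of wounds. Tff3 is the trefoil factor of intestinal goblet cells. In mouse liver it is made in bile ducts and also in hepatocytes, and it has been studied there in connection with glucose output, lipid storage and endoplasmic reticulum stress.

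The probe is shown because every Tff3 value below comes from it. It was 60 bases long and lay at chr17:31262279-31262338 on the minus strand of mm9, per the deposited probe annotation. Whether that span is exonic or untranslated was not looked up, as no mm9 gene annotation was used here. Its first 30 bases, 5′ to 3′, with the letters AATAAA in capitals, were:
Tff3 probe, bases 1 to 30: ctgctgcaggccAATAAAggagccaggagt
AATAAA, the common polyadenylation signal, stood at base 13 and again at base 38 of the probe, and had 0 matches on the other strand. Of all 39429 probes of 60 bases, 16.2% held AATAAA on either strand and 12.6% on the strand of the probe.

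Signal was taken as log2 of the processed spot intensity minus log2 of the array's 75th percentile over non-control probes, so that 0 is the 75th percentile of an array and 1 unit is a factor of 2. Before the results, 1 array has to be set apart. On the array of LIN mouse 8 the image software had marked the Tff3 spot as non-uniform, and that spot was left out unless stated otherwise; values with it kept are given beside the others. The spot varied by 23.2% (SD over mean) from pixel to pixel, against 23.2% and 24.1% on the unmarked arrays of LIN mice 6 and 7 and 13.6% to 21.1% on the PALM arrays. Arrays that shared a scan time were taken as 1 slide. Marked spots were most frequent on slides 1 and 2, where an array had 1283 to 1703 of them, against 238 to 682 on the other slides. The 75th percentile was 117 to 204 intensity units on LIN arrays and 124 to 196 on PALM arrays.

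Tff3 was low in most livers on linseed oil and high in every liver on palm oil. The LIN values were 1.23, 0.92, 2.01, 3.39, 2.00, 1.27 and 0.98 in mice 1 to 7, and 4.14 in mouse 8 with its marked spot. The PALM values were 4.09, 4.40, 5.34, 3.79, 3.79, 4.09, 4.27, 4.25, 4.41 and 3.40 in mice 1 to 10. Of the 7 unmarked LIN arrays, 6 lay at 2.01 or lower, and LIN mouse 4 lay 0.00422 below the lowest PALM value. LIN mouse 8 lay among the PALM mice, with 5 of them below it and 5 above. Without mouse 8 the groups did not overlap, and with it they did. With normexp background correction they overlapped without mouse 8 too, as LIN mouse 4 stood at 3.01, above PALM mice 4 and 10 at 2.82 and 2.98.

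**Figure D1:**
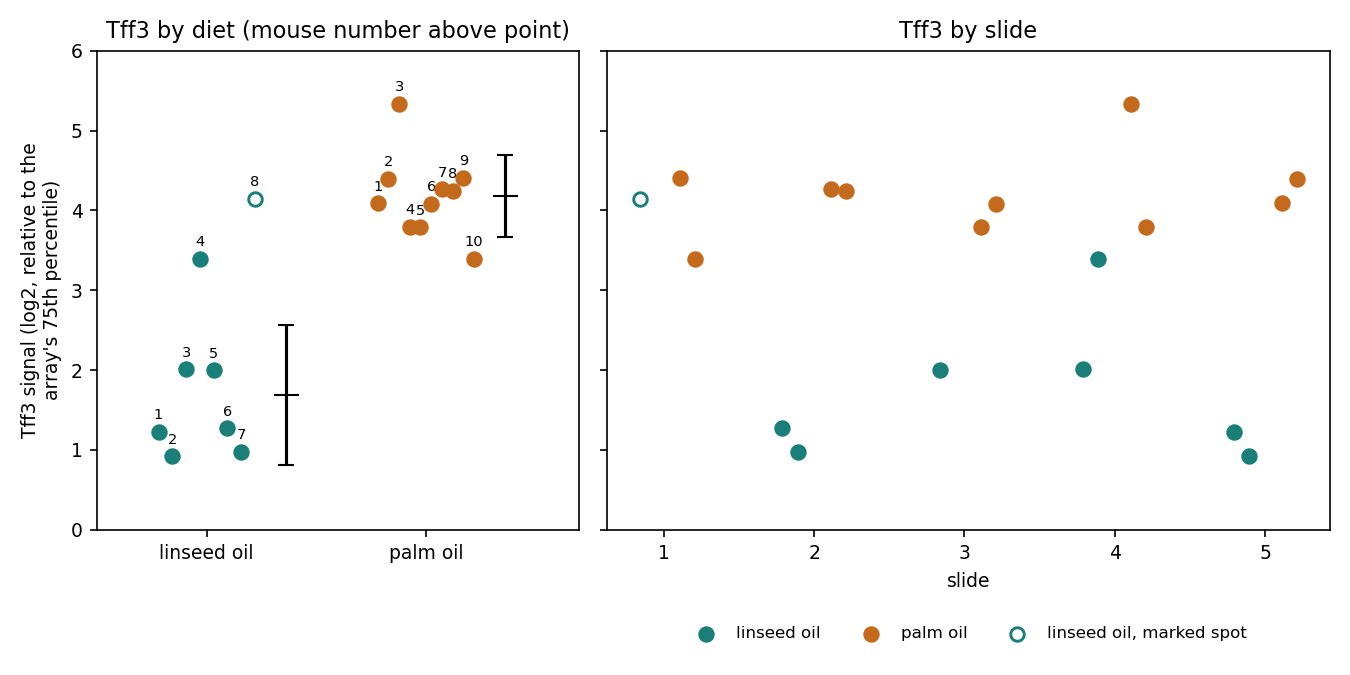
Tff3 signal (log2, relative to each array's 75th percentile) by diet on the left, with 1 point per mouse and the mean and SD of unmarked spots as bars, and by slide on the right. The open point is the marked spot of LIN mouse 8, which lies at 4.14 among the PALM mice, and LIN mouse 4 at 3.39 reaches the lowest PALM value.

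Every one of the 18 spots was well above background and none was saturated. Processed intensity was 237 to 1893 units on the unmarked LIN arrays and 3417 on that of mouse 8, against 2054 to 4988 on PALM arrays. The median spot signal was 8.35 to 134 times the local background on LIN arrays and 62.3 to 134 times on PALM arrays, so the low LIN values were measured levels and not bounds.

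The mean level of Tff3 was 1.68 ± 0.87 in LIN livers (SD, n = 7) and 4.18 ± 0.51 in PALM livers (SD, n = 10). The difference, LIN minus PALM, was −2.50 ± 0.31 (SE from the limma fit over all genes), or 5.64-fold lower on linseed oil. With the spot of mouse 8 kept, the LIN mean was 1.99 ± 1.19 (SD, n = 8) and the difference −2.19 ± 0.39, or 4.56-fold lower. In bulk liver RNA, fewer cells that make Tff3 and less Tff3 RNA per cell cannot be told apart.

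Each of the 5 slides carried both diets, so Tff3 was also compared within slides. LIN was below PALM on the 4 slides where it had an unmarked value: the difference was −3.13 on slide 2, −1.94 on slide 3, −1.86 on slide 4 and −3.17 on slide 5. The LIN array on slide 1 was that of mouse 8. With its spot kept, Tff3 was 4.14 there, against 4.41 and 3.40 in PALM mice 9 and 10, a difference of +0.24. Slide 1 therefore went against the other slides, through a single LIN mouse.

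Tff3 varied more among mice of the same diet than most liver genes did. Its SD within diets was 0.68, above that of 95.5% of the 15951 genes tested, whose median was 0.24. Over LIN arrays alone the SD was 0.87, or 1.19 with mouse 8 kept, and over PALM arrays it was 0.51. The mice farthest above their group were 4 and 8 in LIN, and 3 in PALM, the highest of all 18.

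To see where each mouse lay in its other diet-responsive genes, the genes that differed between diets were called anew without that mouse (limma, Benjamini-Hochberg adjusted p under 0.05, marked spots kept, Tff3 left out). The mouse was then placed on a scale where 0 is the PALM mean and 1 the LIN mean of the remaining mice. Over 168 such genes the median position of LIN mouse 8 was 0.50, the lowest of the LIN mice, with 50% of the genes nearer to the LIN mean. Its Tff3 stood at 0.015 on the same scale, next to the PALM mean. LIN mouse 4 had a median of 0.74 over 120 genes and a Tff3 position of 0.33. The other LIN mice had medians of 0.67 to 1.23, with Tff3 at 0.99 to 1.60. PALM mice had medians of −0.11 to 0.32, below those of all LIN mice. Their Tff3 stood at −0.62 in mouse 3 (median 0.12) to 0.38 in mouse 10 (median 0.20), so it departed from the median there too. In LIN mice 4 and 8, Tff3 lay closer to the PALM mean than the median of the other genes did. These 2 mice were singled out by their high Tff3, so this describes the choice and is not a separate result. They also raised the LIN mean of Tff3 against which the other LIN mice were placed. The place of Tff3 among the single genes was not read.

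**Figure D2:**
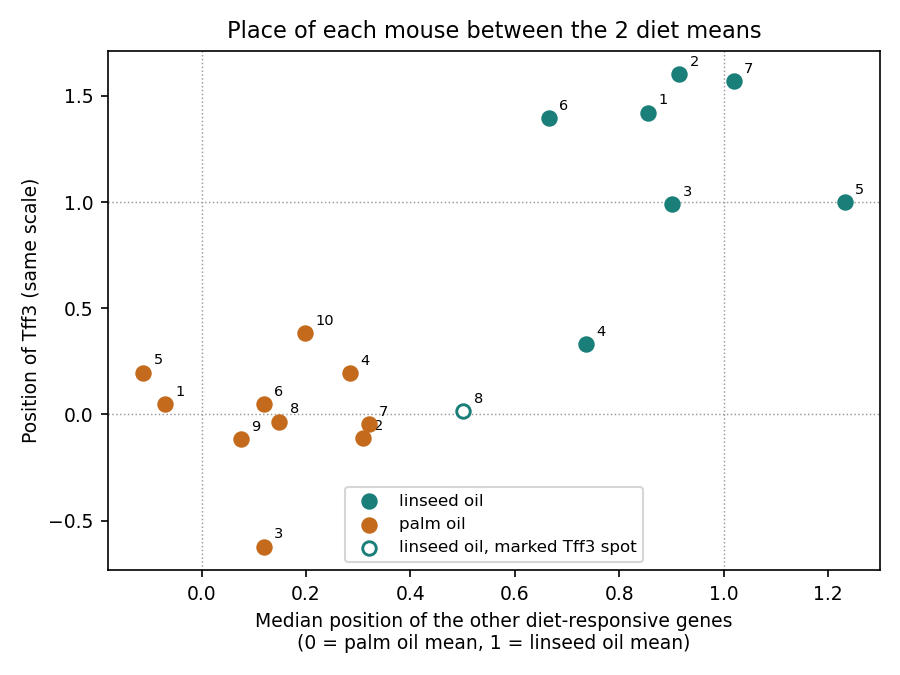
Median position of each mouse over the genes called without it (x axis) against the position of its Tff3 (y axis), both on a scale where 0 is the PALM mean and 1 the LIN mean. LIN mouse 8 (open point, marked Tff3 spot) is at 0.50 in the other genes and at 0.015 in Tff3, and LIN mouse 4 is at 0.74 and 0.33.

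The other trefoil genes gave no comparison. Tff2, the trefoil factor of gastric mucous neck and gland cells, was well above background on 0 LIN and 3 PALM arrays. Tff1, that of gastric surface mucous cells, had 2 probes. One was above background on 1 LIN and 0 PALM arrays and the other on none, so neither gene was tested. In the RefSeq gene order (GRCm38.p6), Tff3 lies between Abcg1 and the pair Tff2 and Tff1, with Tmprss3 beyond them. Abcg1, a cholesterol exporter, was −0.24 ± 0.28 in LIN livers and −0.21 ± 0.25 in PALM livers (SD, n = 8 and 10), a difference of −0.027 ± 0.12 (limma adjusted p = 0.966). Tmprss3, a transmembrane serine protease, was 2.83 ± 0.71 in LIN livers and 2.90 ± 0.56 in PALM livers, a difference of −0.075 ± 0.28 (limma adjusted p = 0.959). Neither measured neighbour differed by more than its error. Umodl1 and Ubash3a, the next genes outward, were never above background.

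Genes that act with Tff3, or in functions for which it has been studied, were read from the same fit. Among all 15951 genes 121 were called (0.759%), with 91 higher in LIN (0.57%) and 30 lower (0.188%). Of 71 list genes tested, 2 were called, 1 in each direction, and both belong to lists of liver zonation. With marked spots kept, 149 of 16544 genes were called (0.901%) and again 2 list genes. Of 6 proposed partners and receptors, 1 was measured well enough to test: Egfr, the epidermal growth factor receptor, was 4.60 ± 0.48 in LIN livers and 4.95 ± 0.35 in PALM livers, a difference of −0.35 ± 0.19 (limma adjusted p = 0.556). Fcgbp, the mucus protein that binds TFF3 in human mucus, was above background on 0 LIN and 2 PALM arrays. Cxcr4, a chemokine receptor, was above it on 0 LIN and 1 PALM arrays, and F2rl1, a protease-activated receptor, on none. Ackr3 and Lingo2 were each above it on 1 LIN array and 0 PALM arrays.

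The mucus and goblet cell genes, with which Tff3 is released in the gut, were mostly not detected. Of 16 genes 3 were tested and 0 called. The member with the smallest p was Creb3l1, a transcription factor of secretory cells, with a difference of −0.22 ± 0.095 (limma adjusted p = 0.431). Of 18 transcription factors reported on trefoil or hepatocyte genes 16 were tested and 0 called, with a median difference of 0.023. Ppara, the fatty acid receptor of hepatocytes, came first at 0.29 ± 0.085 (limma adjusted p = 0.165). Its difference was 0.15 ± 0.069 with marked spots kept (limma adjusted p = 0.455). Ppara had values on all 8 LIN and 10 PALM arrays with marked spots left out. Keeping them can also change which probe is the brightest, and the probe read for Ppara was not compared between the settings.

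Of 25 genes of the endoplasmic reticulum stress response 21 were tested and 0 called. Their median difference was 0.024, against −0.0038 over all genes. Trib3, a pseudokinase induced by that response, came first at 0.55 ± 0.22 (limma adjusted p = 0.357), and Ddit3, the stress transcription factor CHOP, was 0.13 ± 0.092 (adjusted p = 0.671). Of 14 glucose and lipid genes studied with Tff3 in liver 12 were tested and 0 called, with a median of 0.079. Pparg, a lipid storage receptor, came first at 0.44 ± 0.19 (limma adjusted p = 0.428). With marked spots kept all 14 were tested, 0 were called, and Scd1, the stearoyl-CoA desaturase, came first at −0.84 ± 0.20 (limma adjusted p = 0.0552).

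Tff3 was also set beside genes of liver zones, since hepatocytes near the portal vein and near the central vein use different programmes. Of 12 periportal genes 10 were tested, 1 was higher and 0 lower. The called gene was Hsd17b6, a steroid dehydrogenase, at 1.55 ± 0.62 in LIN livers and 0.34 ± 0.56 in PALM livers (difference 1.20 ± 0.26, limma adjusted p = 0.0375). Of 13 pericentral genes 9 were tested, 0 were higher and 1 was lower. Cyp7a1, which sets the pace of bile acid production from cholesterol, was 1.14 ± 0.58 in LIN livers and 2.14 ± 0.40 in PALM livers (difference −0.998 ± 0.22, limma adjusted p = 0.0389). The medians of these lists were 0.084 and −0.051. Leaving out single mice gave 0 to 3 called genes over all the lists, and 0 or 1 in 16 of 18 cases, so neither call held in all of them.

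Because the diets had chosen Tff3, its variation among mice of the same diet was examined separately. The diet mean was taken from both measures, and 18 relations were tested by permuting values within diets (100000 resamples, two-sided), with adjustment over the 18. With marked spots kept, 21 relations were testable.

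Krt23 was the gene of this group that went against Tff3 from mouse to mouse. It encodes a type I keratin that appears in the ductular reaction of injured mouse liver. Its values were 1.65, 0.89, 1.18, −0.01, 0.46, 1.96, 1.61 and −0.17 in LIN mice 1 to 8, and −0.84, −1.42, −1.76, −0.29, −1.04, −0.33, −0.64, −1.27, −0.85 and 0.70 in PALM mice 1 to 10. LIN mice 4 and 8, the highest of their group in Tff3, were the lowest in Krt23. PALM mouse 3, the highest in Tff3, was the lowest of its group in Krt23, and PALM mouse 10, the lowest in Tff3, was the highest.

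Within diets the Pearson r of Krt23 with Tff3 was −0.77 over 17 mice (permutation p = 0.00043, adjusted p = 0.00774), with −0.78 in LIN and −0.81 in PALM. With the spot of LIN mouse 8 kept it was −0.79 (permutation p = 9e-05, adjusted p = 0.00189). The rank correlation was weaker and did not pass the adjustment: rho was −0.63 (permutation p = 0.0141, adjusted p = 0.254), or −0.67 with the spot kept (permutation p = 0.00512, adjusted p = 0.108). Without LIN mouse 4 and PALM mouse 10, the 2 farthest from the median of Krt23, r was −0.62 (permutation p = 0.0184). Without LIN mouse 4 alone r was −0.71 and the adjusted permutation p 0.0884, so that the call rested on that mouse. With slide means also removed r was −0.81.

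**Figure D3:**
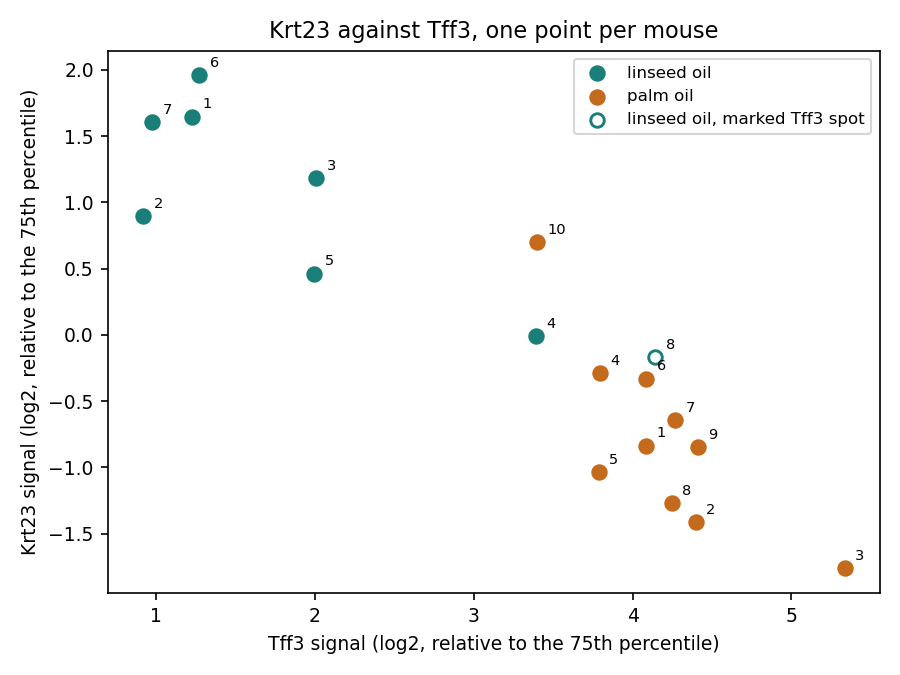
Krt23 signal (y axis) against Tff3 signal (x axis), both log2 relative to the array's 75th percentile, with 1 numbered point per mouse. Within each diet the mice with more Tff3 had less Krt23, with r of −0.78 in LIN and −0.81 in PALM, and the open point is the marked Tff3 spot of LIN mouse 8.

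Krt23 itself averaged 0.95 ± 0.79 in LIN livers and −0.77 ± 0.69 in PALM livers (SD, n = 8 and 10), a difference of 1.72 ± 0.33 (limma adjusted p = 0.0170). On slide 1, where Tff3 did not separate the diets, Krt23 was −0.17 in LIN mouse 8 against −0.85 and 0.70 in PALM mice 9 and 10. Krt19, a keratin of bile duct cells, gave no relation past the test (r = 0.012, adjusted permutation p = 0.955).

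Genes that were lower on linseed oil, as Tff3 was, gave no relation with it within diets that passed the test. Serpina12, the adipokine vaspin, differed by −1.50 ± 0.22 between the diets (limma adjusted p = 0.00218), and its r with Tff3 was 0.30 (adjusted permutation p = 0.766). For Ptgds, a prostaglandin D synthase, r was −0.24, for Nat8, an N-acetyltransferase, −0.18, and for the phosphatase Acpp 0.21 (adjusted permutation p = 0.766 for each). A p that misses the threshold does not show that a relation is absent.

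Of the genes so tested other than Krt23 that were higher on linseed oil, 0 of 4 passed. Cyp4a10, a fatty acid omega-hydroxylase, had an r of 0.084, Acot3, an acyl-CoA thioesterase, −0.11, Cidec, a lipid droplet protein, 0.057, and Cyp3a11, a drug-metabolising enzyme, −0.20, with adjusted permutation p of 0.766 to 0.889. For Cyp4a10 a brighter probe was read with marked spots kept, with means of 6.83 in LIN and 5.26 in PALM against 4.09 and 2.50. Its r was then −0.15 (adjusted permutation p = 0.838). Cyp7a1, lower on linseed oil, had an r of 0.28 (adjusted permutation p = 0.766). Orm1, an acute-phase glycoprotein that was also lower there (−1.11 ± 0.17, limma adjusted p = 0.00787), had an r of 0.51 over 13 mice (adjusted permutation p = 0.464).

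Of the stress genes, Ddit3 had an r of −0.55 (permutation p = 0.0281, adjusted p = 0.169), made up of −0.85 in LIN and −0.24 in PALM, and of −0.33 with marked spots kept. Hspa5, the endoplasmic reticulum chaperone BiP, had −0.12 (adjusted permutation p = 0.813). Lcn2, a secreted iron-carrier-binding protein of neutrophils and of inflamed hepatocytes, had an r of 0.54 (permutation p = 0.0122, adjusted p = 0.110), with 0.47 in LIN and 0.71 in PALM. Without PALM mouse 3, which was highest in Tff3, the r of Lcn2 was 0.37 (adjusted permutation p = 0.810). Over all 18 cases with a single mouse left out it was 0.37 to 0.64. Lcn2 passed in 1 of these cases (adjusted permutation p = 0.0310) and in 1 other setting (adjusted permutation p = 0.0488).

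Cyp4a14, Scd1 and G6pc had too few unmarked values and were read with marked spots kept. Scd1 had an r of 0.66 (permutation p = 0.00467, adjusted p = 0.0490), and 0.28 without LIN mouse 8 and PALM mouse 10 (permutation p = 0.258), so it rested on those 2 mice. G6pc, the enzyme that releases glucose from the liver, had an r of −0.28, and Cyp4a14 −0.092 (adjusted permutation p = 0.565 and 0.838).

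Measures of the arrays were tested in the same family. The 75th percentile had an r of −0.20 with Tff3 (adjusted permutation p = 0.768). It was −0.78 over PALM arrays and 0.14 over LIN arrays. PALM mouse 3 had the lowest percentile of its group, 124 units, and also the highest unscaled Tff3 intensity, 4988 units. The number of probes above background (r = 0.18) and the median background signal (r = 0.24) had adjusted permutation p of 0.775 and 0.766.

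Marker genes of 13 cell types, summed per array with marked spots kept, were set beside Tff3 in the same way. This test was added after the marker sums had been seen. All 16 hepatocyte markers were above background on all arrays. Their sum was 3108 to 5272 times the 75th percentile in LIN livers and 3387 to 4697 times in PALM livers, and its r with Tff3 was 0.033 (permutation p = 0.919). The diets differed in sign, with −0.22 in LIN and 0.82 in PALM, the highest PALM value of the 13 lists, and whether the r of the 2 diets differ was not tested. PALM mouse 3, highest in Tff3, also had the highest PALM sum. Without it the hepatocyte r over both diets was −0.13 (permutation p = 0.733, not adjusted). These sums are relative to the array's 75th percentile, which was lowest of its group in PALM mouse 3 (124 units). Among LIN mice, mouse 1 had the lowest sum and the highest percentile (204 units). LIN mouse 3 had the highest sum and the lowest percentile (117 units). The part of this scaling in the hepatocyte r was not tested. The duct cell sum had an r of 0.27 (adjusted permutation p = 0.443), with 0.39 in LIN and 0.38 in PALM. With slide means also removed it was 0.69, the highest of the 13 lists so treated. The sum was 1.47 to 2.47 in LIN livers and 1.51 to 6.34 in PALM livers. Of the 12 duct cell markers 3 were above background on all arrays, and 8 were tested between diets with 0 called. Of the 10 markers of stomach or gallbladder mucosa, the tissue of the other trefoil factors, 2 were above background on all arrays and 5 on none.

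Neutrophil markers were the list whose sum passed the adjusted Pearson test with Tff3 within diets. The sum had an r of 0.56 over 18 mice (permutation p = 0.00245, adjusted p over the 13 lists = 0.0318), with 0.63 in LIN and 0.79 in PALM. The rank correlation was 0.48 (adjusted permutation p = 0.406), below the 0.50 of the stellate cell sum (adjusted permutation p = 0.406). The sum was 3.78, 7.25, 4.30, 8.27, 8.84, 4.22, 3.55 and 8.28 in LIN mice 1 to 8, and 3.76, 9.67, 40.2, 3.97, 6.39, 5.65, 11.3, 12.8, 5.55 and 6.16 in PALM mice 1 to 10. PALM mouse 3 was highest in both measures, and LIN mice 4 and 8 were in the upper part of their group.

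Without PALM mouse 3 the neutrophil r was 0.48 (permutation p = 0.0404, not adjusted), and without PALM mice 3 and 8 it was 0.51 (permutation p = 0.0517). With slide means also removed, r was 0.58, below the duct cell (0.69) and macrophage (0.59) sums. The list had 8 markers on the array, of which 4 were above background everywhere. The granule genes Ltf and Mpo were above it on 2 LIN and 2 PALM arrays each, and Ngp on 0 LIN arrays and 1 PALM array. Lcn2 belongs to this list too, and made up 29.3% to 57.1% of the sum in LIN mice and 23.0% to 75.6% in PALM mice, with the highest share in PALM mouse 3. The sum of the other 7 markers, taken after these values had been seen, had an r of 0.64 with Tff3 (permutation p = 0.00119, not adjusted) and a rank correlation of 0.34 (permutation p = 0.194). PALM mouse 3 was highest in this sum too, at 9.83, with LIN mouse 8 next at 4.48. The r of this sum without PALM mouse 3 was not read. Between diets the sums overlapped, with medians of 5.77 in LIN livers and 6.28 in PALM livers, and 0 of 5 tested markers were called. The part of neutrophil RNA in the variation of Tff3 was not tested. The macrophage sum had an r of 0.53 (permutation p = 0.0276, adjusted p = 0.179), and the other lists had adjusted permutation p of 0.443 to 0.919.

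**Figure D4:**
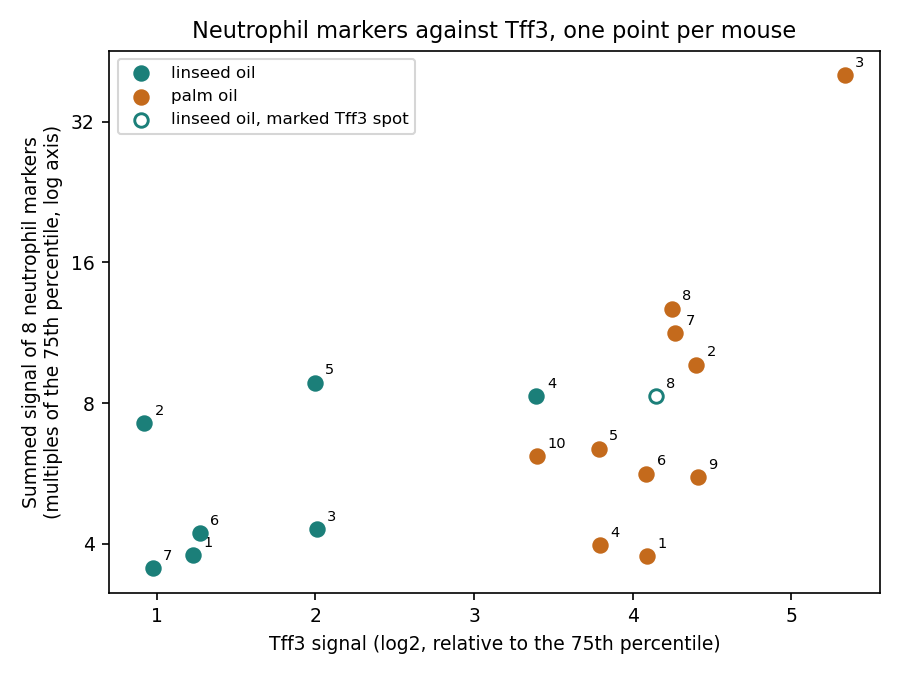
Summed signal of 8 neutrophil markers (y axis, multiples of the array's 75th percentile, log axis) against Tff3 signal (x axis, log2), with 1 numbered point per mouse and marked spots kept. PALM mouse 3, at 40.2 and 5.34, is highest in both, and the diets overlap on the y axis while Tff3 separates most of them on the x axis.

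The genes whose pattern was most like that of Tff3 were found by the mean of the Pearson r over LIN mice and the r over PALM mice, across 15854 genes. They were picked for their likeness and are a description of these arrays. With 7 LIN and 10 PALM mice, 118 of the 15854 genes were above 0.8 in LIN, 95 in PALM and 2 in both. The count in both was 1 with marked spots kept. It was 0 with the percentile over unmarked spots and in the authors' value table. How many genes would be above 0.8 in both by chance was not tested.

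The gene most like Tff3 was Il10ra, a subunit of the interleukin-10 receptor, with r of 0.96 in LIN and 0.76 in PALM. Stap2, an adaptor protein of cytokine signalling, had 0.82 in LIN and 0.86 in PALM. Prtn3, a serine protease of neutrophil granules, had 0.82 in LIN and 0.85 in PALM, although it was above background on 4 LIN and 9 PALM arrays. Hmox1, the heme-degrading oxygenase, had 0.95 in LIN and 0.70 in PALM, and Apcs, the acute-phase protein serum amyloid P, 0.85 in LIN and 0.80 in PALM. Heatr1, a ribosome assembly factor, Jkamp, a membrane protein of the endoplasmic reticulum, and Erdr1 made up the 8 highest. None of these 8 genes was called between the diets, and the nearest was Heatr1 (−0.35 ± 0.082, limma adjusted p = 0.0529).

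The gene most opposed to Tff3 was Ugt2b37, a UDP-glucuronosyltransferase that couples glucuronic acid to steroids and drugs, with r of −0.86 in LIN and −0.83 in PALM. Ugt2b36, of the same family, had −0.84 in LIN and −0.74 in PALM. Krt23 was the third. Cys1, a protein of the primary cilium, had −0.94 in LIN and −0.68 in PALM, and Car1, a carbonic anhydrase, −0.83 in LIN and −0.75 in PALM. Ate1, an arginyltransferase, Nudt18, a nucleotide hydrolase, and Cad, which starts pyrimidine synthesis, completed the 8 lowest, with mean r of −0.78 to −0.77. Of these 8, Krt23 alone was called between the diets.

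**Figure D5:**
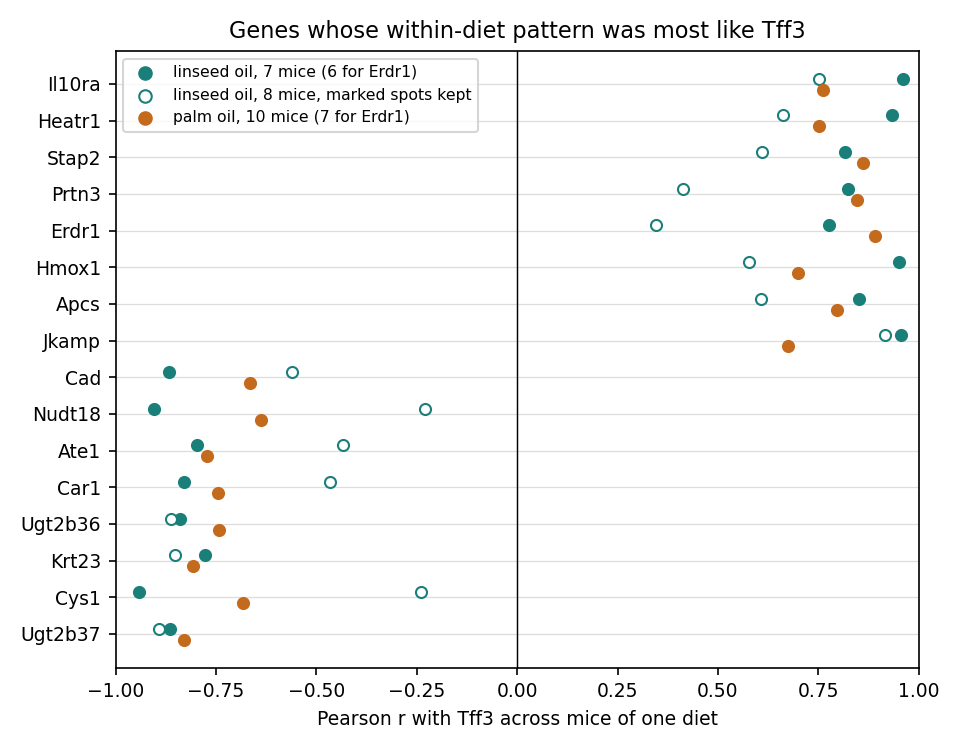
Pearson r with Tff3 across mice of 1 diet (x axis) for the 8 genes with the highest and the 8 with the lowest mean r, with LIN above PALM for each gene and open points for LIN with marked spots kept. Keeping LIN mouse 8 moves most LIN points towards 0, for Cys1 to −0.24, while Ugt2b37, Ugt2b36, Krt23 and Jkamp stay near their values.

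Marked spots weighed on this list, that of Tff3 in LIN mouse 8 among them. With the marked spots of all genes kept, 4 of the 16 genes were still among the 16: Jkamp on the high side, and Ugt2b37, Krt23 and Ugt2b36 on the low side. Erdr1 had marked spots of its own, and its r in PALM went from 0.89 over 7 mice to 0.29 over 10. The r over 8 LIN mice was 0.92 for Jkamp, −0.89 for Ugt2b37, −0.85 for Krt23 and −0.86 for Ugt2b36, whereas that of Cys1 was −0.24 and that of Prtn3 0.41. The genes that came in on the high side included Gckr, the regulatory protein of glucokinase (0.93 in LIN, 0.73 in PALM), and Slc13a5, a citrate transporter (0.81 in LIN, 0.76 in PALM). On the low side Ugt2b5 (−0.97 in LIN, −0.61 in PALM), Ugt2b34 (−0.80 in LIN, −0.73 in PALM) and Hsd17b6 (−0.78 in LIN, −0.75 in PALM) came in. Gckr and Ugt2b5 had too few unmarked values of their own to be ranked with marked spots left out.

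On the low side 4 of the 8 genes then belonged to 1 family, so all Ugt2b genes were read, a choice made after those values had been seen and given without a test. With marked spots kept 7 members were measured, and all 7 had a negative r with Tff3 in LIN and in PALM. The median r was −0.82 in LIN and −0.73 in PALM, against 0.0070 in LIN and 0.037 in PALM over all genes. Ugt2b1 (−0.51 in LIN, −0.82 in PALM) and Ugt2b35 (−0.48 in LIN, −0.42 in PALM) were the least negative in LIN. With slide means also removed the r over both diets was −0.41 for Ugt2b35 to −0.80 for Ugt2b38. Leaving out single mice moved the r of Ugt2b37 between −0.83 and −0.76. None of the 6 members in the diet fit was called, with limma adjusted p of 0.645 to 0.904. Ugt2b genes are similar in sequence and neighbours in the genome, and signal shared between their probes was not checked, so they are not 7 independent readings.

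Whether likeness seen in one diet was found in the other was read by choosing genes over PALM mice and reading them over LIN mice. The 20 genes with the highest r over PALM mice (0.88 to 0.93) had a median r of 0.36 over LIN mice, with 19 of 20 above 0. The 20 with the lowest (−0.92 to −0.82) had a median of −0.23, with 14 of 20 below 0. Together 33 of 40 (82.5%) had the same sign in LIN, where 62.1% of all genes had the same sign in both diets. With marked spots kept the count was again 33 of 40, against 51.9% of all genes. With slide means removed within each diet it was 17 of 40, and without LIN mouse 4, PALM mouse 1 or PALM mouse 3 it was 22. A slide held 1 or 2 mice of a diet, so removing its mean left little variation. The count of 17 therefore cannot tell whether the likeness is lost.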

How the data were processed

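Total RNA (1 µg per liver) was labelled with Cy3, per the labels' protocols. Spot intensity values were deposited by the authors as image software output (Feature Extraction 9.5.3.1, per the file headers), already background-subtracted and not scaled between arrays. A log2 value table of the authors, whose scaling and filter are not given in the sources used here, served as an alternative. Feature Extraction 9.5 and limma are the tools in the submitters' processing notes. The deposited non-uniformity and outlier marks (other values) defined marked spots.

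Values were log2 processed signal minus the array's 75th percentile over non-control probes. A probe was kept if well above background on 8 arrays with values on 6 arrays per diet, and the brightest probe so kept stood for a gene. The diet contrast was fitted by lmFit and eBayes of limma 3.58.1 (R 4.3.3), two-sided and without covariates, at a Benjamini-Hochberg adjusted p of 0.05. The fit and the permutation test were checked on simulated data. Groups came from the sample titles, and slides from the file headers, where arrays with the same scan time were taken as 1 slide. The arrays of slide 3 carried no barcode. P-values measure the spread between these mice, and the number of arrays limits the precision. Named genes are Tff3, its trefoil relatives and neighbours, the 8 genes most and the 8 least like it, 18 relation genes and the leading member of each list. Members, lists and relation genes were chosen with earlier results of these data known. Alternatives covered marked spots, scaling, background, filter, probe choice, slide, replicate number and each array. Same-numbered mice did not deviate together in every pair: over 8 pairs the correlation of their deviations was −0.24 to 0.50, with 5 pairs above 0.1.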

Additional observations from a re-analysis of the deposited data

Results flagged for a closer look

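The Tff3 value of PALM mouse 3, 5.34, stood far from the other 9 PALM mice: its gap to the next was 0.478 of the whole range, against a critical value of 0.466 (Dixon). The neutrophil marker sum of the same mouse, 40.2 times the 75th percentile, stood apart as well (0.485 of the range on the log2 scale). For Abcg1, the neighbour of Tff3, PALM mouse 9 was low at −0.76 (0.488 of the range). Chance gives such a gap in about 1 of 20 groups. LIN mouse 4 just missed the mark in Tff3 (0.56 against 0.568). No explanation was tested.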

How the results depend on the processing

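The Tff3 difference stayed below 0 in all settings run: −2.58 to −2.11 over 12 other settings, among them the replicate block at −2.57 ± 0.35, and −2.78 to −2.37 when single arrays were left out (−2.50 to −2.04 with marked spots kept, an alternative added after seeing the data). The numbers of genes called between diets were less stable. Against 121, they were 42 with the percentile over unmarked spots, 68 with normexp, 44 with no filter on dim probes, 200 with slide as a random block, 186 with marked spots kept and slide as a fixed block, and 18 with the replicate block. Without single arrays they were 51 to 142, and moved by over 1.5 times without LIN mouse 2, 3, 5 or 7 or PALM mouse 1, 5, 6, 9 or 10. The list genes called, 2 in the main setting, were 1 over unmarked spots, in the authors' table and with slide as a fixed block, 0 without the filter and with the replicate block, and 0 to 3 without single arrays. Replicate numbers gave no clear pairing of the mice, as each mouse was closest to its own number in 2 of 8 pairs. They went partly with slides. Same-numbered mice shared a slide for numbers 1 to 5, with correlations of 0.25 to 0.50, and for number 7, with 0.094. Those numbered 6 and 8 did not share one, with 0.0012 and −0.24. The losses under the block are not read as weaker effects, and their cause was not tested.

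Of the relations within diets 1 passed, against 2 with marked spots kept or normexp, 0 over unmarked spots (Krt23 r −0.65, adjusted permutation p = 0.0680) and 0 to 2 without single arrays, the extremes being LIN mouse 4 and LIN mouse 2. The r of Krt23 was negative in all of these settings, −0.95 to −0.65, and −0.95 with the replicate block. Of the 16 genes most like Tff3, 4 were shared with marked spots kept, 5 over unmarked spots, 5 with normexp, 3 in the authors' table, 0 with slide means removed, and 6 to 16 without single arrays (6 without LIN mouse 4, 7 without PALM mouse 3, 9 without LIN mouse 5 or 6). The genes carried from PALM to LIN were 17 of 40 with slide means removed and 22 to 34 without single arrays. With 1 or 2 mice of a diet per slide, removing slide means left little variation for either of these counts. The causes were not tested. With 7 or 8 LIN and 10 PALM arrays, 1 Tff3 probe and 1 spot per array, no second probe checks any of these values.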

Other observations

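Genes of the endoplasmic reticulum stress response were read beside Tff3 within diets, with marked spots kept. Of 25 genes 5 had a positive r with Tff3 in LIN and 5 in PALM, with a median r of −0.18 in LIN and −0.28 in PALM, against 0.0070 in LIN and 0.037 in PALM over all genes. The 10 macrophage markers had a positive r for 9 genes in LIN and 9 in PALM, with medians of 0.34 in LIN and 0.40 in PALM. The 6 red blood cell markers measured had a positive r for 0 genes in LIN and 1 in PALM, with medians of −0.49 in LIN and −0.26 in PALM. Over all 16543 genes, r was positive for 8412 in LIN and 8822 in PALM. These lists were picked from all those read, and others leaned to a side too. The 10 stellate cell markers had a positive r for 7 genes in LIN and 9 in PALM. The genes of a list share cells, arrays and scaling, and these counts carry no test.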
